A study of Mus musculus with 6 samples.

Results

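The inward rectifier and ATP-sensitive potassium (KATP) channel subunits of the heart were examined in left ventricular apex RNA from mice with an induced loss of PTIP and from littermate controls. The members were the pore-forming genes Kcnj2, Kcnj12, Kcnj3, Kcnj5, Kcnj8 and Kcnj11 and the sulfonylurea receptor genes Abcc8 and Abcc9. They were taken as every probe set that the array annotation ties to a single one of these genes, which gave 16 probe sets for 8 genes, out of 45037 probe sets and 18193 genes tested. RNA of each mouse was hybridised to 1 Affymetrix array. The knockout group was 3 female mice with a floxed and a null allele of PTIP (gene Paxip1) and a transgene in which the cardiac alpha myosin heavy chain driver expresses Cre recombinase fused to a modified estrogen receptor. The control group was 3 female littermates that kept 1 wild type allele beside the floxed one, with no Cre described. All 6 mice were of a mixed C57B6 and B6129 background, were 8 weeks old and received tamoxifen (20 mg/kg), and RNA was taken 5 days after injection (a protocol note gives 5 days of treatment, so the number of injections is unclear). Effects of the Cre transgene, of the null allele and of the induced deletion cannot be told apart in this design, and cells of the apex other than cardiomyocytes keep the floxed allele.

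Inward rectifiers pass potassium into the cell more easily than out of it, and in heart muscle they set the resting potential and shape the end of the action potential. Kcnj2 and Kcnj12 encode the Kir2 subunits of the strong inward rectifier current IK1, which dominates in working ventricular muscle. Kcnj3 and Kcnj5 encode the GIRK subunits that assemble into the acetylcholine-activated current IKACh, best known from atrium and pacemaker tissue, where G protein beta-gamma subunits open them. KATP channels join a pore of Kcnj11 or Kcnj8 with a sulfonylurea receptor of Abcc8 or Abcc9, close when ATP is plentiful and open in metabolic stress. In ventricular myocytes the classical pair is Kcnj11 with Abcc9, in vascular smooth muscle and pericytes it is Kcnj8 with Abcc9, and in pancreatic beta cells it is Kcnj11 with Abcc8.

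Values are log2 expression from RMA, so 1 unit is a doubling, and a difference is always knockout minus control. On 3 of the 4 Paxip1 probe sets the knockout mice were lower and the limma test passed. Of the 3 Esr1 probe sets 1 passed. Esr1 1421244_at read 12.54 to 12.59 in the knockout mice against 5.14 to 8.49 in the controls. The reason for the wide spread of the controls on it was not tested. The array medians lay between 5.15 and 5.26. The 3'/5' actin signal, a log2 ratio that grows as RNA degrades, ran from 1.17 to 1.85 and was highest in control 1, which also lay apart from the other arrays on the first principal component. All probe sets of a member gene are given because they can read different transcript ends, and levels of different probe sets are not compared. As a guide to dim values, 13 probe sets of 6 Y-linked genes, which female mice lack, read from 1.62 to 5.50. The median of their means was 2.57. This dim range is wide, since the median of all probe set means on the array, 5.19, lies inside it. A value in its upper part is therefore not shown to be background.

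No subunit gene passed the test across the array, and most differences were small. Of the 16 probe sets, none passed limma at an adjusted p under 0.05, where 0.191% of all probe sets did. At an unadjusted limma p under 0.05 there were 2 of 16 (12.5%), against 9.07% of all probe sets, of which 4.59% were lower and 4.48% higher in the knockout mice. Both member probe sets were lower. Those 2 belonged to Kcnj5 and Abcc8. The groups did not overlap on 4 of the 16 (25%), against 14.4% of all probe sets, and with 16 probe sets these shares carry little weight. Taking each gene by its brightest probe set, 3 genes read higher and 5 read lower. The median of their differences was -0.061, beside 0.022 over all genes. The differences ran from -0.54 to 0.15. The median of their sizes without sign was 0.14, beside 0.12 for all genes.

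**Figure D1:**
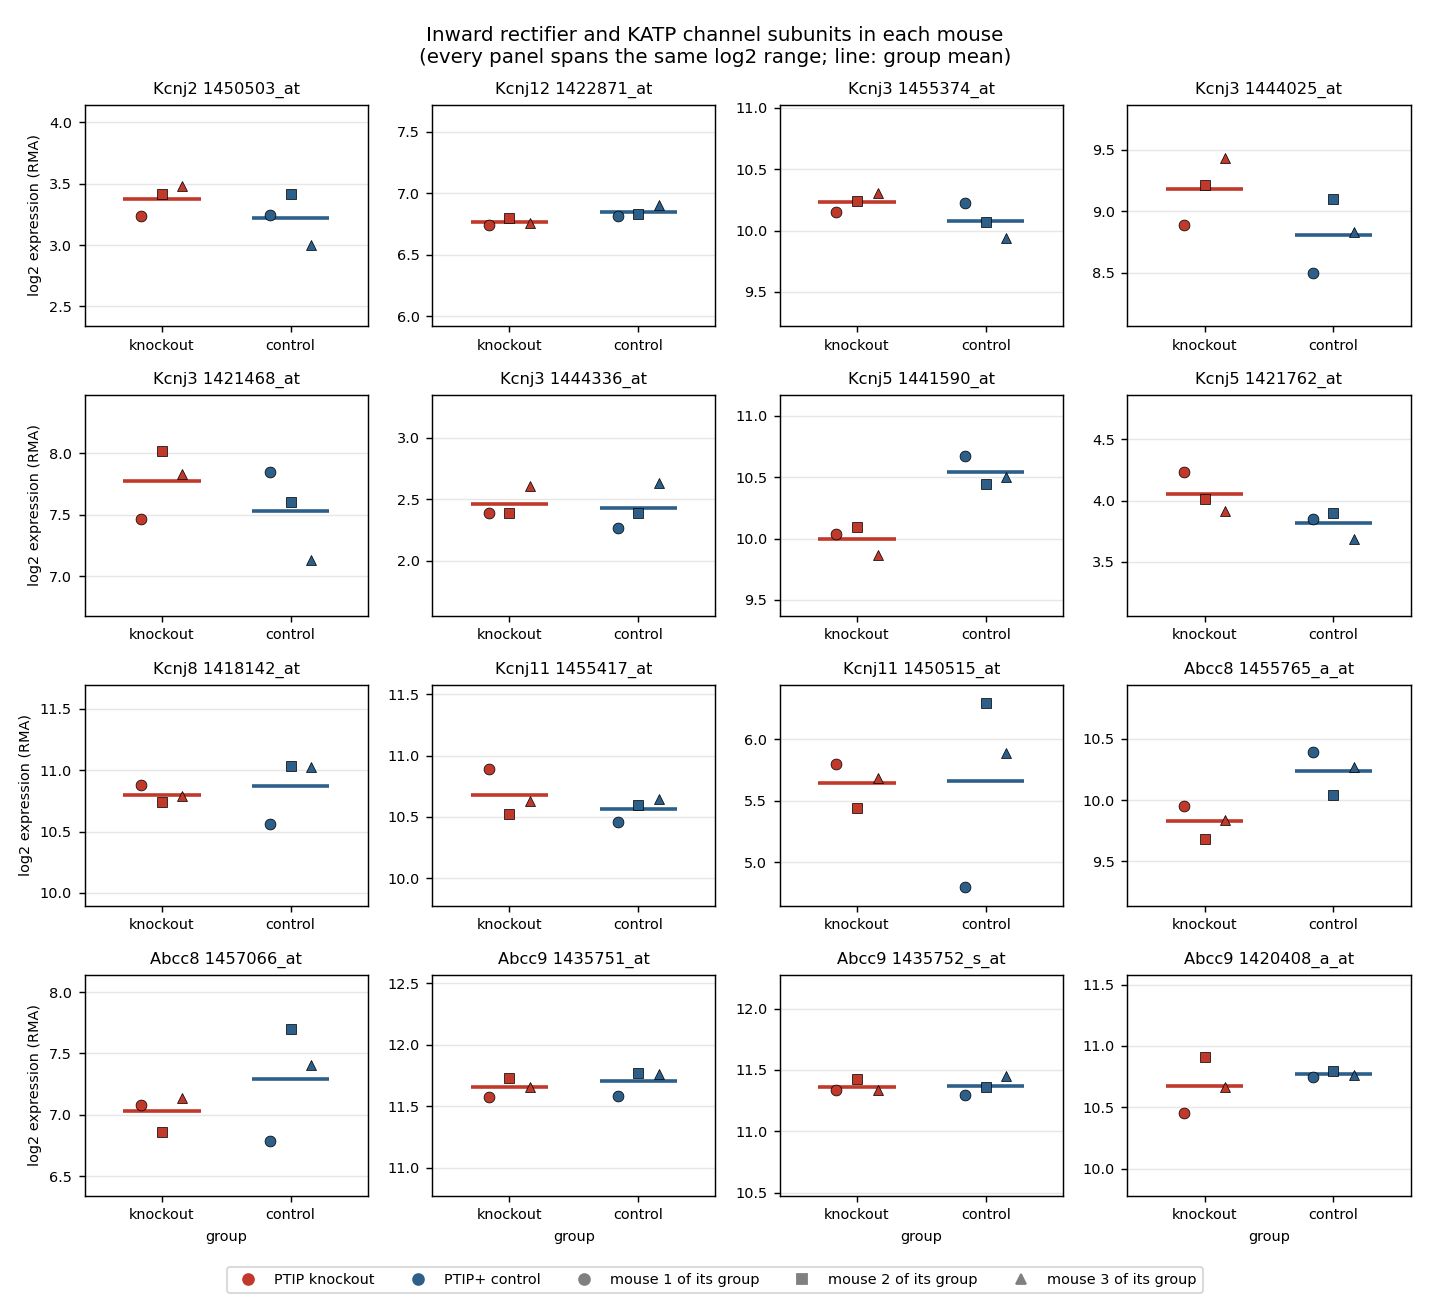
Log2 expression (vertical axis, RMA) of the 16 probe sets of the 8 subunit genes in each of 3 knockout (red) and 3 control (blue) mice, with symbols for mouse 1, 2 and 3 of a group and a line at each group mean. Every panel spans the same log2 range; on Kcnj5 1441590_at and Abcc8 1455765_a_at the 3 knockout mice all lie below the 3 controls.

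The GIRK subunits gave the largest difference among the members, on one probe set of Kcnj5. Kcnj5 1441590_at read 10.03, 10.09 and 9.87 in knockout mice 1 to 3 and 10.67, 10.44 and 10.50 in controls 1 to 3. All 3 knockout mice thus lay below all 3 controls, with group SDs of 0.12 and 0.12. The difference was -0.54 (SE 0.12, 95% interval -0.82 to -0.26), a 1.45-fold lower level, with an unadjusted p = 0.00243 and an adjusted p = 0.214 from limma, which did not pass, and an exact permutation p = 0.1. This exact permutation p is the smallest possible with 3 mice a group. The unadjusted limma p of this probe set stayed under 0.05 in all 15 alternative settings tried for it, up to 0.0116, and the adjusted p ranged from 0.081 to 0.676, so it passed in none. The difference lay between -0.59 and -0.47 whichever mouse was left out.

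The second Kcnj5 probe set went the other way. Kcnj5 1421762_at read 4.23, 4.01 and 3.91 in the knockouts and 3.85, 3.90 and 3.69 in controls, a difference of 0.24 (95% interval -0.06 to 0.54, limma, adjusted p = 0.661). Again the groups did not overlap, though narrowly, and here the knockout mice were higher. This probe set lies within the range of the Y-linked probe sets, whereas 1441590_at lies far above it. Per the array annotation the dim probe set was designed on the RefSeq transcript of Kcnj5 and the bright one on another sequence entry, so the 2 may not read the same transcript. With both averaged, the Kcnj5 difference was -0.15 (limma, adjusted p = 0.718).

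Kcnj3, the GIRK partner of Kcnj5, was not lower on any of its 4 probe sets. Kcnj3 1455374_at, its brightest, read 10.15, 10.24 and 10.31 in the knockouts and 10.22, 10.07 and 9.94 in controls. The groups overlapped through control 1, and the difference was 0.15 (95% interval -0.12 to 0.43, limma, adjusted p = 0.791). The largest Kcnj3 difference was on 1444025_at, at 8.89, 9.21 and 9.44 against 8.50, 9.10 and 8.83, which is 0.37 (95% interval -0.09 to 0.83, limma, adjusted p = 0.662). Kcnj3 1421468_at differed by 0.24 (95% interval -0.27 to 0.76), and 1444336_at, which read between 2.27 and 2.63 in the 6 mice, by 0.032. With a mouse left out, 1444025_at ran from 0.21 (without control 1) to 0.52 (without control 2), and 1421468_at from 0.044 (without control 3) to 0.40 (without control 1). The interval of the brightest probe set leaves out a decrease beyond 0.12 on the log2 scale, but this bound holds for that probe set alone. The interval of 1421468_at, the only Kcnj3 probe set designed on the RefSeq transcript, reaches down to -0.27.

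The 250 bases before the annotated starts of Kcnj5 and Kcnj3, from RefSeq on GRCm38.p6, are shown because these genes encode the subunits of a single channel. The Kcnj5 probe set designed on the RefSeq transcript read higher, as Kcnj3 did, so the windows are not matched to the lower reading of 1441590_at. Capitals mark each GC box (GGGCGG on either strand, where the Sp1 family can bind), and the TATA box (TATAAA) and E-box (CACGTG) were searched on both strands as well.
Kcnj5, chr9:32344345-32344594, minus strand: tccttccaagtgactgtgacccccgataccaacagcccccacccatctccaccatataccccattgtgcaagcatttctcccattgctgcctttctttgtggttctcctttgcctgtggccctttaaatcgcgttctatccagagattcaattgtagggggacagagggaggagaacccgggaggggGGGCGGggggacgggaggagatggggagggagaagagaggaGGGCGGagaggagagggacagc
Kcnj3, chr2:55435720-55435969, plus strand: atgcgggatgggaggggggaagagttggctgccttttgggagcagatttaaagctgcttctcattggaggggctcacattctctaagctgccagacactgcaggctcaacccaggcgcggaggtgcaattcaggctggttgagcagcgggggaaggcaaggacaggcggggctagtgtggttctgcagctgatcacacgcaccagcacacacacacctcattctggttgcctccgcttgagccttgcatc
The Kcnj5 window holds 2 GC boxes and the Kcnj3 window holds 0, and 32.7% of 32851 windows of this length hold at least 1. Neither window holds the TATA box letters, found in 12.4% of windows, or the E-box, found in 6.02%. The windows are alike in composition, with 58.0% and 58.4% G and C and 7 CpG each, beside a median of 52.4% and 6 CpG over all windows. Of the 6 member genes with a window in the table, Kcnj2 holds 2 GC boxes and 1 E-box, Abcc9 holds 1 GC box, and Kcnj12 and Kcnj8 hold none of the 3 motifs. These matches describe the letters and were not tied to the differences.

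Of the Kir2 subunits behind IK1, Kcnj12 could be read and Kcnj2 could hardly be. Kcnj12 1422871_at read 6.74, 6.80 and 6.76 in the knockouts and 6.82, 6.83 and 6.90 in controls. The groups narrowly did not overlap, and the difference was -0.085 (SE 0.10, 95% interval -0.32 to 0.15, limma, adjusted p = 0.875). The within-group SDs of 0.03 and 0.05 were smaller than the SE because limma draws each probe set's spread towards that of the whole array. Kcnj2 1450503_at, the only Kcnj2 probe set, read 3.23, 3.41 and 3.48 in the knockouts and 3.24, 3.42 and 3.00 in controls. The groups overlapped, with a difference of 0.15 (95% interval -0.18 to 0.48, limma, adjusted p = 0.835), which was 0.045 without control 3. All 6 Kcnj2 values lie inside the range of the Y-linked probe sets, so this probe set bears little on a transcript that ventricular muscle is known to express.

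Of the KATP pore subunits, Kcnj11 and Kcnj8 showed no difference beyond the spread of the mice on their brightest probe sets. Kcnj11 1455417_at read 10.89, 10.52 and 10.63 in the knockouts and 10.46, 10.60 and 10.64 in controls, a difference of 0.12 (95% interval -0.19 to 0.42, limma, adjusted p = 0.869). Knockout 1 was the highest of the 6 and the others overlapped, and without knockout 1 the difference was 0.011. The other Kcnj11 probe set, 1450515_at, was dimmer and spread widely in the controls, at 4.80, 6.29 and 5.89 against 5.80, 5.44 and 5.68 in the knockout mice. Its difference of -0.016 turned to -0.45 without control 1 (limma, adjusted p = 0.422) and to 0.30 without control 2.

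Kcnj8 1418142_at read 10.88, 10.74 and 10.79 in the knockouts and 10.56, 11.03 and 11.02 in controls. Control 1 was the lowest of the 6 mice and the other controls were the highest. The difference was -0.070 (95% interval -0.43 to 0.29, limma, adjusted p = 0.944), and -0.22 without control 1 (limma, adjusted p = 0.514). Control 1 was also the lowest mouse on the brightest probe sets of the pericyte genes Vtn (9.06 against 9.69 to 10.18 in the other mice), Ndufa4l2 (8.09 against 8.48 to 8.99) and Colec11 (8.06 against 8.26 to 8.73), but not of Rgs5 (12.16). Of 11 pericyte markers it was the lowest for 4 and the highest for 1. This was not particular to pericytes. Control 1 was the lowest for 6 of 12 fibroblast, 4 of 13 endothelial and 4 of 12 smooth muscle markers, and the highest for 2, 1 and 3. It also had the highest 3'/5' actin signal (1.85). The parts of cell content and of RNA quality in the Kcnj8 value of control 1 were not tested. In bulk RNA, fewer cells of a type and less RNA per cell cannot be told apart.

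Of the sulfonylurea receptors, Abcc8 read lower on its brightest probe set without passing, and Abcc9 was nearly level. Abcc8 1455765_a_at read 9.95, 9.69 and 9.84 in the knockouts and 10.39, 10.04 and 10.27 in controls. The groups did not overlap, with knockout 1 and control 2 nearest to each other. The difference was -0.41 (SE 0.13, 95% interval -0.73 to -0.10), a 1.33-fold lower level, with an unadjusted p = 0.0175 and an adjusted p = 0.414 from limma and an exact permutation p = 0.1. The unadjusted limma p rose above 0.05 in 4 of 15 alternatives. These were without knockout 2 (0.0622), without control 1 (0.0504), without control 3 (0.0509) and with the leading digits of the description number as a block (0.101). The second Abcc8 probe set, 1457066_at, read 7.08, 6.86 and 7.14 against 6.78, 7.70 and 7.40, with control 1 lowest and the groups overlapping. It differed by -0.27 (95% interval -0.80 to 0.27), by -0.52 without control 1 and by -0.07 without control 2. The mean of both Abcc8 probe sets differed by -0.34 (limma, adjusted p = 0.358).

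Abcc9 had 3 probe sets, all well above the dim range, and each differed by less than 0.1. Abcc9 1435751_at read 11.57, 11.73 and 11.65 in the knockouts and 11.58, 11.77 and 11.77 in controls, a difference of -0.053 (95% interval -0.31 to 0.21). Abcc9 1435752_s_at read 11.33, 11.42 and 11.33 against 11.30, 11.36 and 11.45, a difference of -0.0076 (95% interval -0.25 to 0.23). Abcc9 1420408_a_at read 10.45, 10.91 and 10.67 against 10.75, 10.80 and 10.76 and differed by -0.093, with knockouts 1 and 2 lying on either side of all controls. The limma adjusted p of the 3 lay between 0.908 and 0.993. On 1435752_s_at, the probe set with the narrowest interval, a change by more than 0.25 on the log2 scale in either direction lies outside the 95% interval. The intervals of 1435751_at and 1420408_a_at reach down to -0.31 and -0.41.

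**Figure D2:**
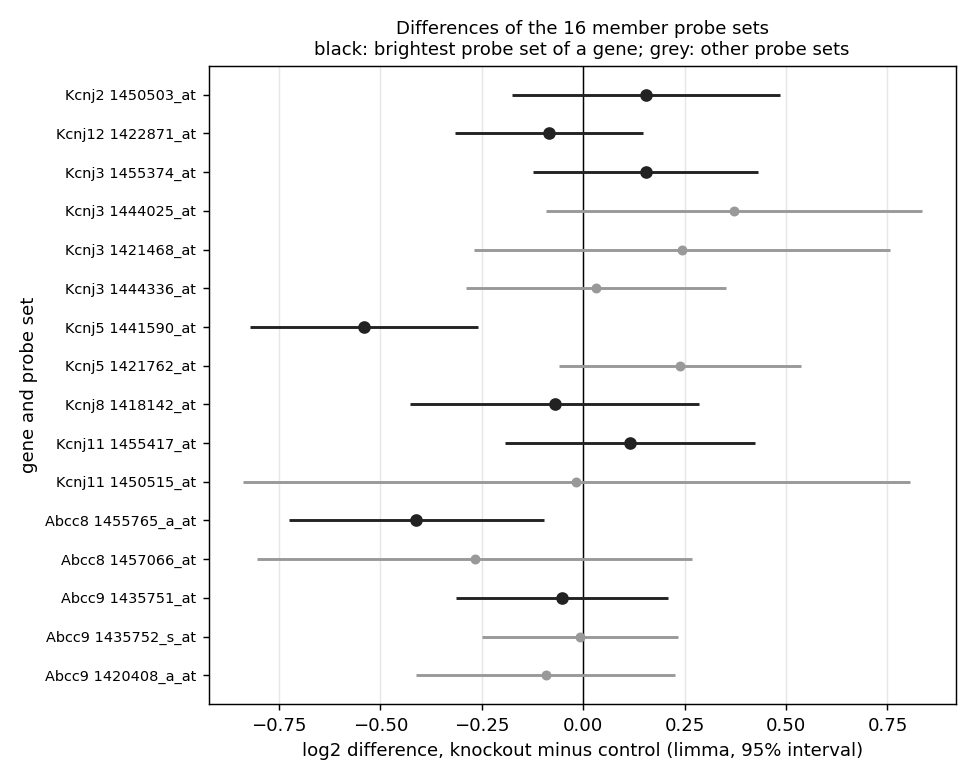
Log2 difference, knockout minus control, of the 16 probe sets (points) with 95% intervals from limma (lines), the brightest probe set of each gene in black and the others in grey. Kcnj5 1441590_at (-0.54) and Abcc8 1455765_a_at (-0.41) have intervals that leave out 0, and the other 14 include it.

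Subunits that assemble with each other, or that can take the same place in the KATP channel, were set side by side by taking, in each mouse, the difference between their brightest probe sets and comparing it between the groups. The 6 pairs were chosen after the values were seen. On Kcnj5 1441590_at the change was 0.69 below that of Kcnj3 1455374_at on the log2 scale. The difference of changes was thus -0.69, with no overlap between the groups. Kcnj5 1421762_at went the other way (0.24), so this contrast holds for 1441590_at only. For Abcc8 against Kcnj11, the beta cell pair, the difference of changes was -0.53, also with no overlap. Both gave an exact permutation p = 0.1 (two-sided, the smallest possible here) and 0.3 adjusted over the 6 pairs. The vascular pair Abcc9 and Kcnj8 differed by 0.017, the myocyte pair Abcc9 and Kcnj11 by -0.17, and both overlapped between the groups (exact permutation p = 1 and 0.4). Abcc8 against Abcc9 gave -0.36 (exact permutation p = 0.2), so the receptors were not shown to change differently, and Kcnj11 against Kcnj8 gave 0.19 (exact permutation p = 0.3).

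Several of these genes are neighbours on their chromosomes in the RefSeq gene table. Kcnj11 lies beside Abcc8 on chromosome 7, Kcnj8 beside Abcc9 on chromosome 6, Kcnj5 beside Kcnj1 on chromosome 9 and Kcnj2 beside Kcnj16 on chromosome 11. The differences of the brightest probe sets were 0.12 and -0.41 for Kcnj11 and Abcc8, and -0.070 and -0.053 for Kcnj8 and Abcc9. For Kcnj5 and its neighbour Kcnj1 they were -0.54 and -0.15, with Kcnj1 in the dim range at 3.02 to 3.54.

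**Figure D3:**
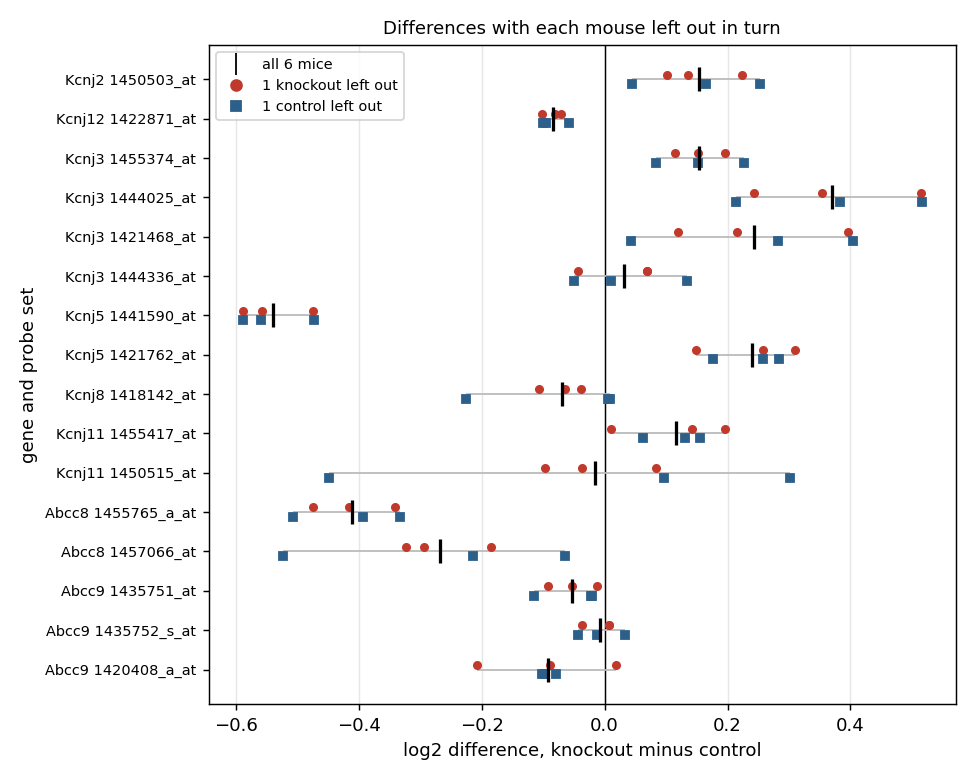
Log2 difference, knockout minus control, of the 16 probe sets with all 6 mice (black bar), with 1 knockout left out (red circles) and with 1 control left out (blue squares). Kcnj5 1441590_at stays between -0.59 and -0.47, whereas Kcnj11 1450515_at runs from -0.45 to 0.30.

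Markers of other cells were read beside the subunits, since GIRK channels are richest in atrial muscle. None of the 100 marker entries measured in 9 lists passed limma, and 12 (12%) had an unadjusted limma p under 0.05, near the 9.27% of all genes. Ventricular genes were bright, led by Myl3 at 13.90 in the knockouts and 13.91 in controls, and their mean level ran from 13.17 to 13.20 in the knockout mice and 13.06 to 13.15 in the controls. The mean of 10 atrial markers ran from 7.23 to 7.41 in the knockout mice and from 6.93 to 7.57 in the controls, with Bmp10 (at most 2.33) and Mybphl (at most 3.85) in the dim range. Of the 10 atrial markers 5 read higher and 5 lower, with a median difference of 0.0061. Those at an unadjusted limma p under 0.05 were 3, all higher in the knockout mice, namely Stard10 (0.65), Nppa (0.54) and Tbx5 (0.52). Control 1 was the highest of the 6 mice for 4 atrial markers, among them the light chains Myl7 (8.35) and Myl4 (9.70) and Sln (5.66), and the lowest for 3. It was also the highest for Kcnj5 1441590_at (10.67) and Abcc8 1455765_a_at (10.39). Without control 1 the differences of these 2 subunit probe sets were -0.47 and -0.33. On no other probe set of Kcnj5, Kcnj3 or Abcc8 was control 1 the highest. On Kcnj3 1455374_at it read 10.22, below knockouts 2 and 3. It was the lowest of the 6 mice for Kcnj3 1444025_at (8.50), Kcnj3 1444336_at (2.27, dim) and Abcc8 1457066_at (6.78). Pericyte markers ran from 9.21 to 9.34 in the knockout mice and 9.10 to 9.33 in the controls, and smooth muscle markers from 9.52 to 9.75 and 9.42 to 9.60. Of 14 macrophage and leukocyte markers 12 read lower, with means of 6.91 to 7.49 against 7.43 to 7.46. Their median difference was -0.28, and knockout 1 had the highest mean of the 6 mice (7.49). At an unadjusted limma p under 0.05 there were 4 of these 14 markers, all lower in the knockout mice. They were 4 of the 12 such entries over the 9 lists. The groups did not overlap on 5 of the 14, beside 2914 of all 18193 genes by their brightest probe sets. The medians of the differences were -0.02 for endothelium, 0.01 for fibroblasts, -0.18 for conduction cells and 0.21 for Schwann cells and nerves. The part of any of these cells in the subunit values was not tested.

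Other Kcnj genes and genes that act with these channels were described by 6 lists of 128 genes, of which 120 were measured, each by its brightest probe set. None passed limma over all probe sets. At an unadjusted limma p under 0.05 there were 12 (10%), beside 9.27% of all genes. Of the 12, 4 were higher and 8 lower, beside 5.47% and 3.80% of all genes. Their median difference was -0.0069.

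**Figure D4:**
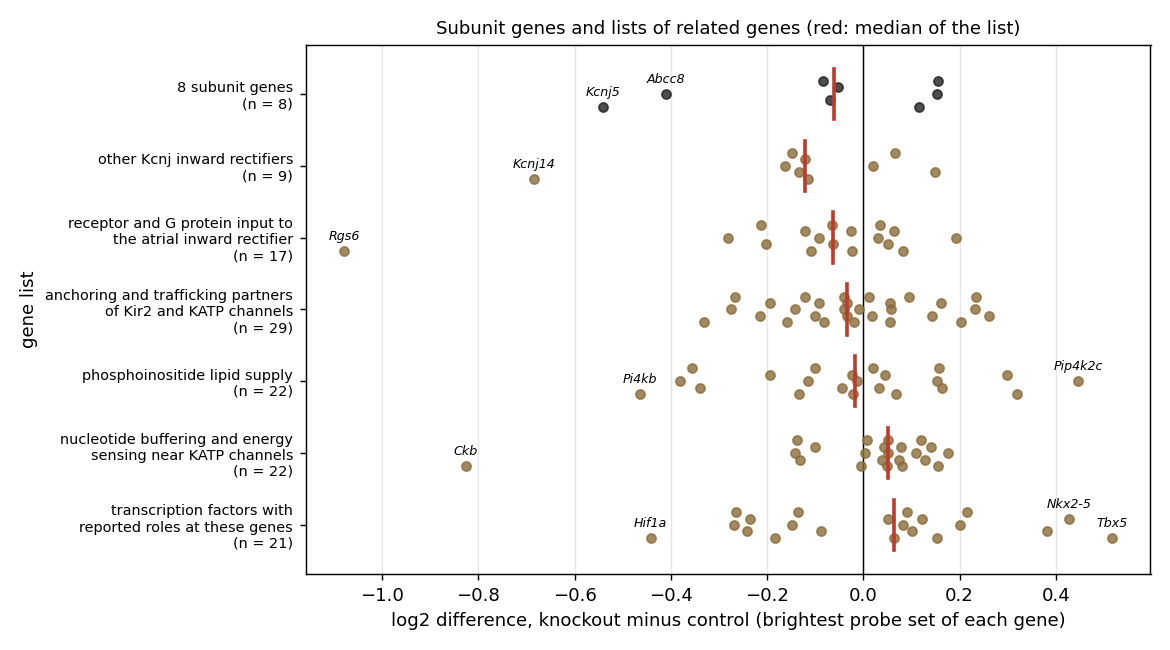
Log2 difference, knockout minus control, of the brightest probe set of each gene (points) for the 8 subunit genes and 6 lists of related genes, with the median of each list in red and genes beyond 0.4 in size named. Rgs6 (-1.08), Ckb (-0.83) and Kcnj14 (-0.69) lie furthest to the left.

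The other 9 Kcnj genes were dim, with no value above 4.90 on any of their 20 probe sets. Kcnj14, a further Kir2 gene, read 4.11, 3.93 and 3.99 in the knockouts and 4.56, 4.63 and 4.90 in controls. Its groups did not overlap and it differed by -0.69 (SE 0.13, limma unadjusted p = 0.000894 and adjusted p = 0.143, exact permutation p = 0.1). For the remaining 8 genes (Kcnj1, Kcnj4, Kcnj6, Kcnj9, Kcnj10, Kcnj13, Kcnj15 and Kcnj16) the brightest probe sets differed by -0.16 to 0.15 with overlapping groups. Over all 20 probe sets, 2 had an unadjusted limma p under 0.05, beside 9.07% of all probe sets on the array, and none passed. The groups did not overlap on 4 of the 20, beside 14.4% on the array. Beside Kcnj14 these were Kcnj9 1428602_at (-0.42), Kcnj6 1425044_at (0.25) and Kcnj16 1435094_at (0.24), all within the dim range.

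Among the receptor and G protein genes that feed the GIRK channel, 17 of 21 were measured, 6 reading higher and 11 lower, and Rgs6 had the smallest p. Rgs6, whose protein speeds the closing of GIRK channels by shortening G protein signals, read 5.18, 5.03 and 5.76 in the knockouts and 6.42, 6.41 and 6.38 in controls on 1452399_at. The difference was -1.08 (SE 0.19, limma unadjusted p = 0.000639 and adjusted p = 0.121, exact permutation p = 0.1). Its second probe set, 1427340_at, read 4.12, 4.39 and 3.89 against 6.13, 5.46 and 5.26, a difference of -1.49 (SE 0.24, limma, adjusted p = 0.0898). The groups overlapped on neither. Most knockout values of both lie within the dim range, as do controls 2 and 3 on 1427340_at, so the sizes of these differences are uncertain. The mean of both differed by -1.28, with an adjusted p = 0.0148 in limma over gene means, under the same limit. Gnb5, the G protein beta subunit that partners Rgs6, differed by -0.07 (limma, adjusted p = 0.957). Rgs4, another regulator of G protein signals, differed by -0.21 (-0.22 and -0.41 on its other probe sets), and the inhibitory alpha subunit genes Gnai3 and Gnai2 by -0.28 and 0.19 (0.030 and 0.15 on their second probe sets), none of the brightest passing (limma adjusted p from 0.613 to 0.670).

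Anchoring and trafficking partners differed little. By their brightest probe sets, 12 of 29 read higher and 17 lower. Beside 9.27% of all genes, 1 of the 29 had an unadjusted limma p under 0.05. This was Akap5, a scaffold of protein kinase A, with -0.33 (limma, adjusted p = 0.471), in the dim range. Over all 99 probe sets of the list 4 had such a p, beside 9.07% of all probe sets on the array, and none passed. The others were of the ankyrins Ank3 (0.35) and Ank2 (-0.57, dim) and of Gorasp1 (0.31), a Golgi stacking protein. The brightest probe sets of Sntb1, a syntrophin, Apba1, an adaptor, and Ank3 differed by -0.28, 0.23 and 0.26, and their other probe sets ranged from -0.29 to 0.16, from -0.021 to 0.25 and from -0.065 to 0.54. In the list of phosphoinositide enzymes, which make and remove the membrane lipid that inward rectifiers need to open, 10 of 22 read higher and 12 lower. Pip4k2c, a phosphoinositide kinase, differed by 0.45 and by 0.67 on its second probe set (limma adjusted p = 0.396 and 0.297). Plce1, a phospholipase, differed by -0.34, and Ocrl, a lipid phosphatase, by -0.38, but by -0.016 and -0.040 on its other probe sets. Pi4kb, a kinase, differed by -0.46 and by -0.079 on its second probe set.

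Among 22 genes of nucleotide buffering and energy sensing, which set the ATP and ADP that KATP channels see, 16 read higher and 6 lower. Ckb, the brain-type creatine kinase, read 8.58, 8.11 and 8.39 in the knockouts and 8.68, 9.51 and 9.36 in controls, without overlap, and differed by -0.83 (SE 0.23, limma, adjusted p = 0.332). Prkaa2, a catalytic subunit of AMP kinase, differed by 0.18 on its brightest probe set and by 0.57 and 0.27 on the others, none passing (limma adjusted p from 0.361 to 0.767). Ak3, a mitochondrial adenylate kinase, differed by -0.14 on its brightest probe set and by -0.073 and 0.14 on the others, and Pkm, pyruvate kinase, by 0.14. Of 21 transcription factors 12 read higher and 9 lower. Tbx5 differed by 0.52 and by 0.89 on its second probe set (limma adjusted p = 0.188 and 0.156), and the mean of both by 0.70 (limma over gene means, adjusted p = 0.0366). The controls of its second probe set (4.39, 4.94 and 4.74) lie within the dim range. Srf differed by 0.38 and Nkx2-5 by 0.43. Hif1a, the oxygen-sensitive factor, differed by -0.44, -0.74 and -0.64 on 3 probe sets and by 0.57 on 1431981_at, none passing.

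Kcnj5 was the member with the smallest p on its brightest probe set, and its pattern over the 6 arrays was set against 11074 named genes of above-median level. The closest were Rhof (Pearson r = 0.993), Pkp4 (r = 0.991) and Kalrn (r = 0.991), with differences of -0.22, -0.25 and -0.50. Kcnj5 was chosen for its group difference, so genes picked for a like pattern read lower in the knockouts by that choice. Their differences therefore add no support to that of Kcnj5. These are descriptions over 6 arrays, and 197 genes had an r over 0.9.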

How the data were processed

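The deposited values are log2 expression values that, per the submitters' processing notes, the authors made with RMA (background, between-array normalisation, probe set summary). No RMA version is known here, and base 2 follows from the range of values. Labelled target came from the NuGen Ovation biotin system, per the labels' protocols. Normalisation between arrays hides any change in total RNA, and the number of arrays limits the precision. Of 45101 probe sets, 64 controls were left out. The platform annotation gave 1 gene for 34945 of the 45037 tested, several for 932, and did not list 9160. Symbols were updated through the Entrez identifier (GRCm38.p6 gene table, 34741 found), which changed 0. No array annotation build is named, so coordinates are those of the promoter table alone.

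The knockout minus control difference was fitted with limma 3.58.1 under R 4.3.3 (lmFit and eBayes, two-sided, group as the only term), adjusted by Benjamini-Hochberg over all tested probe sets, and passing meant an adjusted p under 0.05. Each gene's brightest probe set (highest mean over all arrays) represents it in lists. Single probe sets had an exact permutation test in R, and the subunit pairs had one in scipy 1.17.1. The fit was tested on simulated data. The members and lists were chosen with earlier results of these data known. Named were all member probe sets, every other Kcnj gene, and up to 4 genes of smallest p per related list. From the cell type lists some of the brightest genes, the dim atrial genes and the atrial genes at an unadjusted limma p under 0.05 were named. Genes at such a p in the other cell type lists were not named. Genes moving with control 1 were named after their values were seen, as were Ank2, Gorasp1, Gng2 and Rgs3. The alternatives tried left out each mouse, averaged a gene's probe sets, loosened the threshold, added a block (replicate number, or leading digits of the description number), normalized again, dropped dim probe sets, or changed limma's weights and variance prior. Mice with the same replicate number did not deviate together (correlations of -0.15, -0.08 and -0.01), so the numbers do not pair them.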

Additional observations from a re-analysis of the deposited data

How the results depend on the processing

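No member probe set passed in any of the 16 alternatives, the replicate block included, and of 234 recomputed differences 219 kept sign and side of the threshold. The rest changed sign around 0. Kcnj11 1450515_at (-0.016) became 0.014 with renewed quantile normalization, 0.025 with each array centred on its median and 0.025 with the block of description numbers. Abcc9 1435752_s_at (-0.0076) became 0.034 when centred. With a mouse left out, Kcnj3 1444336_at ran from -0.050 to 0.13, Kcnj8 1418142_at from -0.22 to 0.0094, Kcnj11 1450515_at from -0.45 to 0.30, Abcc9 1435752_s_at from -0.044 to 0.033 and Abcc9 1420408_a_at from -0.21 to 0.018.

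The 2 member probe sets at an unadjusted p under 0.05 were 1 with the block of description numbers and 1 to 3 with a mouse left out; with the replicate block they were 2. The 86 probe sets passing over the whole array were 185 with a variance trend, 51 with a robust prior, 204 with array weights, 196 at an adjusted p under 0.1, 0 with the replicate block, 0 with the block of description numbers (3392 and 2479 at an unadjusted p under 0.05) and 0 to 21 with a mouse left out (3164 to 5093). Related genes that passed went from 0 to 2, Rgs6 and Tbx5, when all probe sets of a gene were averaged, each with some values in the dim range. The causes were not tested. The block of description numbers leaves knockout 3 against the controls. No mouse correlated best with its own number in the other group.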
